A study of Homo sapiens with 6 samples.

Results

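The metallothionein and zinc response genes described here are 9 genes, taken by symbol from a table of 27914 genes: the metallothioneins MT1E, MT1F, MT1G, MT1M, MT1X and MT2A, the metallothionein pseudogene MT1L, the zinc exporter SLC30A1 and the transcription factor MTF1. They were proposed with the expression values of these libraries and the difference between the groups in view, so their values in that comparison are given as a description and no test is read from them. RNA was sequenced from MCF10A, a human breast epithelial cell line that grows without limit but does not form tumours. The 3 libraries labelled ⍺-/-;βin are called PI5P4K-depleted here, because the series title names the PI5P4K lipid kinases, and the 3 libraries labelled SCRin control have a wild-type genotype. All 6 libraries came from cells that had received doxycycline for 3 days. The labels expand none of SCR, in, ⍺ or β, and do not say whether the ⍺-/- cells are a single clone or whether the replicates are separate cultures, so the p-values below rest on a spread between libraries that may be no more than technical.

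Metallothioneins are small, cysteine-rich proteins that bind zinc, copper and cadmium. MTF1 is a zinc-sensing transcription factor that binds short metal response elements before the metallothionein genes and before SLC30A1, whose product carries zinc out of the cell, so the transcripts of these genes are commonly read as a gauge of free zinc. Metallothionein transcripts, MT2A above all, are also induced by glucocorticoids, cytokines and oxidants.

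Expression was given as TPM, a level scaled to a fixed total per library and already corrected for transcript length. The number of reads per library cannot be known from TPM, and in bulk RNA less RNA per cell and fewer cells carrying it cannot be told apart. Between 14738 and 15058 genes were above 0 in a library. PIP4K2A, which encodes the α enzyme, was at 4.09, 4.16 and 4.35 TPM in PI5P4K-depleted libraries and at 19.8, 20.2 and 21.7 TPM in controls, and PIP4K2B, which encodes the β enzyme, at 8.195, 8.69 and 11.6 TPM in PI5P4K-depleted libraries and at 20.8, 23.1 and 21.4 TPM in controls, both in the direction of the labels. All 9 breast epithelial markers examined averaged at least 1 TPM, and the leukocyte gene PTPRC was at 0 in all 6 libraries. Some of the epithelial markers also differed between the groups, and the median log2 difference over the 9 was 0.51. EPCAM, an epithelial adhesion gene, was higher in PI5P4K-depleted cells, at 48.5, 55.4 and 44.6 TPM against 9.75, 10.9 and 9.40 TPM in controls (log2 difference 2.19, SE 0.12, limma adjusted p = 0.000847 over all genes). The other 8 did not pass, though the groups did not overlap for KRT5 (log2 difference 0.54), TP63 (0.72) or ITGA6 (0.51). They overlapped for KRT14 (1.57) and CDH1 (0.17), and also for KRT18 (-0.04) and KRT8 (-0.34), which went the other way. KRT5, a basal keratin, and KRT17, another, were the most abundant of the 9, and KRT17 had a log2 difference of 0.33 with overlapping groups. The 9 markers summed to 2312 to 2886 TPM in PI5P4K-depleted libraries and to 1639 to 2677 TPM in controls. The part of these marker differences in the metallothionein levels was not tested. Of the leukocyte markers CD68, which many cell types express, was at 35.6 to 38.7 TPM in PI5P4K-depleted libraries and at 38.3 to 44.9 TPM in controls. The fibroblast markers summed to 2.62 to 6.04 TPM in PI5P4K-depleted libraries and to 1.96 to 6.29 TPM in controls (log2 differences 0.05 for COL1A1 and 0.17 for DCN, the most abundant), and the endothelial markers summed to 0.0790 to 0.199 TPM in PI5P4K-depleted libraries and to 0.0330 to 0.213 TPM in controls.

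The metallothionein genes lie side by side on chromosome 16 and encode proteins of nearly the same sequence, so it matters whether reads of a copy can be told from those of another. The coding sequences of the 4 protein-coding copies with the highest TPM are shown here for that reason, from GENCODE v29 transcripts. They are written 5′ to 3′ with capitals at the 29 of 186 positions where the 4 copies are not all the same.
MT2A: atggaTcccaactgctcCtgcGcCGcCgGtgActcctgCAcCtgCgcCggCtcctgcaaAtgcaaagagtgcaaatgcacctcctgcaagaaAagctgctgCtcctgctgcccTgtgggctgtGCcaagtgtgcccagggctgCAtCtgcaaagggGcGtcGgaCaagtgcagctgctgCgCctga
MT1E: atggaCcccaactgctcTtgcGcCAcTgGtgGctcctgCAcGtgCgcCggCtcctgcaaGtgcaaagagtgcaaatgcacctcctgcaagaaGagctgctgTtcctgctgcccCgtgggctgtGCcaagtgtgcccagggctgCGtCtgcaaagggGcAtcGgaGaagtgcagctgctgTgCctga
MT1F: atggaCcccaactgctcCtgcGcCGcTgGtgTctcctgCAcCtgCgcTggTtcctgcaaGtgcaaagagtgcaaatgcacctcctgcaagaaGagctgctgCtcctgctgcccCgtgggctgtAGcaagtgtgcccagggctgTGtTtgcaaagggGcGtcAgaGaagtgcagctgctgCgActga
MT1X: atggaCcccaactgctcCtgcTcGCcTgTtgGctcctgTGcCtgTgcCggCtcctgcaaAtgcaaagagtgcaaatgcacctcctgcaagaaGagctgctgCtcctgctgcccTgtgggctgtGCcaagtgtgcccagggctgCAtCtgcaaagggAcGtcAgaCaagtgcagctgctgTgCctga

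MT1F matched MT1E at 91.9% of coding positions, MT2A at 91.4% and MT1X at 88.7%. Outside the coding part the transcripts differ more. Of the 1971 different stretches of 50 bases in annotated MT1F transcripts, retained introns included, 24 (1.22%) also occurred in a transcript of another metallothionein gene, and of the stretches of 75 bases 0 did. For MT2A the shared part was 1.58% at 50 bases and 0% at 75 bases. MT1E shared 7.10% at 50 bases and 1.42% at 75 bases, and MT1X 3.64% and 1.41%. MT1G had the most sequence in common with other copies at 50 bases, 16.5%, followed by MT1M with 9.87%. The read length and the way the authors placed reads that match several copies were not given in the sources used here. Levels of MT1G and MT1M are therefore uncertain, and those of the other copies may be too. At 36 bases MT1E shared 12.6% and MT1L 10.6%. These shares pool all annotated transcripts of a gene and count exact matches only. MT1F averaged 29.3 TPM over the 6 libraries, beside 18488.7 TPM for MT2A. The part of misplaced MT2A reads in the MT1F level was not tested. The sum over copies is given beside the single genes.

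**Figure D1:**
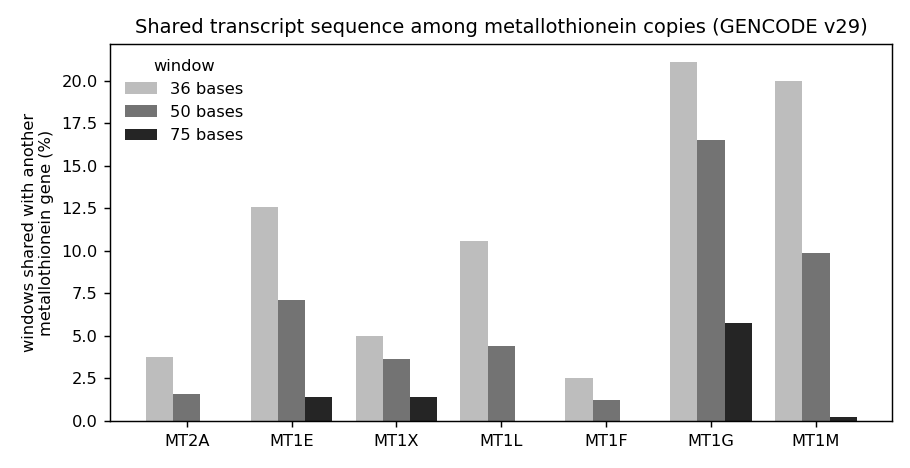
Percentage of the different 36-, 50- and 75-base windows in the annotated transcripts of each metallothionein (x axis) that also occur in a transcript of another metallothionein gene. MT1G and MT1M share the most at 36 and 50 bases (21.1% and 20.0% at 36 bases), and MT1F the least at both lengths (2.51% and 1.22%).

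MT2A, the main metallothionein transcript of these cells, measured 16886, 25039.9 and 18957 TPM in PI5P4K-depleted replicates 1, 2 and 3, against 12817, 22808 and 14426 TPM in control replicates 1, 2 and 3. Its rank among all genes lay between 1 and 5 in every library. The groups overlapped, because control replicate 2 was above PI5P4K-depleted replicates 1 and 3. The mean was 20294 ± 4238.5 TPM in PI5P4K-depleted cells and 16683.5 ± 5365 TPM in controls (SD, n = 3 each), a log2 difference of 0.31 on the log2(TPM + 1) scale, on which all differences here are given as PI5P4K-depleted minus control. On the same scale the SD between replicates was 0.29 in PI5P4K-depleted cells and 0.44 in controls, so that the difference lay between the SDs of the 2 groups. It was 0.14 without control replicate 1 and 0.56 without control replicate 2.

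MT1E, the next most abundant copy, was likewise highest in replicate 2 of each group, although control replicates 1 and 3 stood in the reverse order. It measured 1747, 2325 and 1763 TPM in PI5P4K-depleted libraries, against 1389, 2104 and 1247 TPM in controls. Again the highest control lay above the lower PI5P4K-depleted libraries (log2 difference 0.32, which was 0.17 without control replicate 3 and 0.55 without control replicate 2). There were 10.3, 9.28 and 9.30 TPM of MT1E for each 100 TPM of MT2A in PI5P4K-depleted libraries, and 10.8, 9.23 and 8.65 in controls, a range of 8.65 to 10.8 over libraries in which MT2A itself ranged from 12817 to 25039.9 TPM.

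MT1X, an isoform induced by metals in many cell types, was not highest in replicate 2 of either group. It measured 270.1, 219.5 and 282 TPM in PI5P4K-depleted libraries, against 296, 293 and 269 TPM in controls (log2 difference -0.16, which was -0.05 without PI5P4K-depleted replicate 2). PI5P4K-depleted replicate 2, the library with the most MT2A, had the least MT1X. MT2A was 62.5, 114 and 67.2 times MT1X in PI5P4K-depleted libraries and 43.2, 77.9 and 53.6 times in controls. In GENCODE v29 an unnamed gene overlaps MT1X on the same strand, and reads from it cannot be separated.

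MT1L, a transcribed pseudogene that makes no full-length metallothionein, measured 203, 257 and 285 TPM in PI5P4K-depleted libraries, against 137, 183 and 233 TPM in controls. Its highest control was above the lowest PI5P4K-depleted library (log2 difference 0.45, which was 0.25 without control replicate 1). MT1L was highest in replicate 3 of each group, not in replicate 2.

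MT1F was the member whose groups did not overlap. It measured 12.5, 11.4 and 18.6 TPM in PI5P4K-depleted libraries, against 43.2, 41.9 and 48.1 TPM in controls. Every PI5P4K-depleted library was below every control, and the control values lay close together. The mean was 14.2 ± 3.86 TPM in PI5P4K-depleted cells and 44.4 ± 3.26 TPM in controls (SD, n = 3 each), or 32.0% of control, a log2 difference of -1.61. Relative to MT1X, further along the same cluster, the level was 4.64, 5.21 and 6.59 TPM of MT1F for each 100 TPM of MT1X in PI5P4K-depleted libraries, and 14.6, 14.3 and 17.9 in controls. The MT1F protein is a metallothionein 1 isoform of the same metal-binding kind as the others.

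MT1G and MT1M, isoforms that are low in these cells, were near 0 in most libraries. MT1G measured 5.62, 0.255 and 0.451 TPM in PI5P4K-depleted libraries and 0.509, 0.291 and 0 TPM in controls, so that its mean rests on PI5P4K-depleted replicate 1. MT1M measured 0.162, 0 and 0 TPM in PI5P4K-depleted libraries and 0, 0.149 and 2.56 TPM in controls, with control replicate 3 alone above 1 TPM. An exact 0 in such a table can also be a failed estimate.

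The 7 metallothionein copies together made up 1.91%, 2.79% and 2.13% of all TPM in PI5P4K-depleted libraries, against 1.47%, 2.54% and 1.62% in controls. MT2A held 87.3% to 89.9% of that sum in every library. The sum was 22761 ± 4543 TPM in PI5P4K-depleted cells and 18779.9 ± 5811 TPM in controls (SD, n = 3 each), a log2 difference of 0.30, with overlapping groups. MT1F made up 0.0655%, 0.0411% and 0.0873% of the sum in PI5P4K-depleted libraries, and 0.294%, 0.165% and 0.296% in controls.

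**Figure D2:**
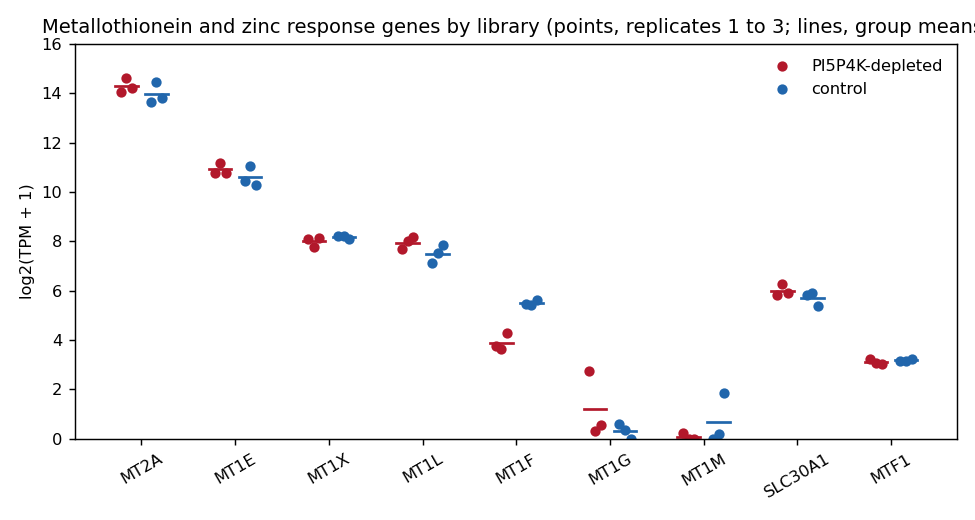
Level of each gene as log2(TPM + 1) in 3 PI5P4K-depleted and 3 control libraries, with points for replicates 1 to 3 and lines at the group means. MT1F is the gene whose groups are apart (12.5, 11.4 and 18.6 TPM against 43.2, 41.9 and 48.1 TPM), while MT2A stands highest throughout.

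SLC30A1, the zinc exporter of the plasma membrane, measured 54.9, 77.1 and 58.4 TPM in PI5P4K-depleted libraries, against 55.2, 59.6 and 40.6 TPM in controls. The groups overlapped (log2 difference 0.29, which was 0.13 without control replicate 3), and PI5P4K-depleted replicate 2 was again the highest library. MTF1, the zinc sensor itself, measured 8.44, 7.32 and 7.17 TPM in PI5P4K-depleted libraries, against 7.95, 7.90 and 8.47 TPM in controls, a narrow range with overlapping groups (log2 difference -0.08). In GENCODE v29 a gene overlaps MTF1 on the opposite strand, and strandedness of the libraries is unknown from the sources used here.

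In order of level, MT2A was followed by MT1E in every library, without overlap between them. MT1X and MT1L came next, at levels that overlapped in PI5P4K-depleted cells (257.3 ± 33.3 and 249 ± 41.6 TPM) and did not overlap in controls (286 ± 14.9 and 184 ± 47.6 TPM). SLC30A1 and MT1F were apart in PI5P4K-depleted cells (63.5 ± 11.9 and 14.2 ± 3.86 TPM) and overlapped in controls (51.8 ± 9.94 and 44.4 ± 3.26 TPM). MTF1 stood below both groups of MT1F (7.65 ± 0.693 TPM in PI5P4K-depleted cells and 8.11 ± 0.312 TPM in controls), and MT1G and MT1M were lowest by mean.

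A mean of at least 1 TPM over the 6 libraries was the condition for entering the fit across all genes, which 8 of the 9 genes met, MT1G through a single library, and MT1M did not. In that fit (limma, threshold of 0.05 on the Benjamini-Hochberg adjusted p), 1 of the 8, MT1F, was past the threshold, where 2.19% of 12096 tested genes were (0.364% higher and 1.83% lower). MT1F was also the 1 gene of the 8 whose groups did not overlap, where 17.1% of all tested genes had such groups. The median log2 difference was 0.30 over the 8 genes and -0.01 over all tested genes. Since the genes were picked on this comparison, these counts describe them and support nothing.

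The libraries numbered 2 had the most MT2A, MT1E and SLC30A1 of their group. MT2A in PI5P4K-depleted replicate 2 was 1.40 times the mean of replicates 1 and 3, and in control replicate 2 1.67 times. For MT1E these ratios were 1.32 in PI5P4K-depleted cells and 1.60 in controls, and for SLC30A1 1.36 and 1.24. For MT1F they were 0.735 and 0.919, and for MT1X 0.795 and 1.04. A ratio above 1.2 in both groups, a limit chosen after the values were seen, was met by MT2A, MT1E and SLC30A1, 3 of the 8 tested genes, and by 12.8% of all tested genes.

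Of 15 genes linked to metal, heat or oxidant stress, 7 met the same limit, and 3 (DNAJB1, HSPB1 and BAG3) had a ratio below 1 in both groups. The 7 were SLC7A11, TXNRD1, GCLM, SRXN1, SQSTM1, NQO1 and HSPH1. SLC7A11, the cystine importer, measured 54.4, 159 and 37.1 TPM in PI5P4K-depleted libraries and 39.1, 132 and 27.4 TPM in controls. TXNRD1, thioredoxin reductase, measured 177, 339 and 142 TPM in PI5P4K-depleted libraries and 143, 321 and 129.6 TPM in controls. Both were picked for having the list's highest ratios, and both were highest in replicate 2 of each group, as MT2A was. The labels give no culture day or batch, and the part of any shared handling of the libraries numbered 2 in the metallothionein levels was not tested.

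**Figure D3:**
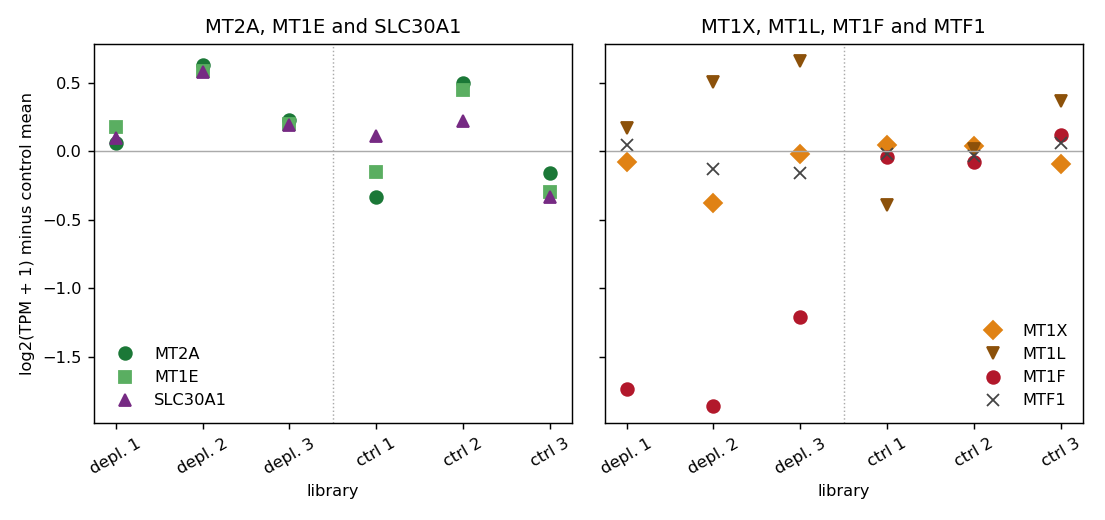
Level of 7 genes as log2(TPM + 1) minus the mean of the 3 controls, for PI5P4K-depleted (depl.) and control (ctrl) replicates 1 to 3. MT2A and MT1E are highest in replicate 2 of each group (0.63 and 0.59 in PI5P4K-depleted, 0.50 and 0.45 in control), and MT1F is low in all 3 PI5P4K-depleted libraries (-1.74, -1.86 and -1.21).

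Among the genes whose levels ran closest to MT2A over the 6 libraries, out of 9719 other genes averaging 5 TPM or more, were PEX5, PNKD and SLC20A1. Closeness was the root mean square distance between log2(TPM + 1) profiles after each was centred on its own mean. The distances were 0.023 for PEX5, the closest, 0.047 for PNKD and 0.057 for SLC20A1, against a median of 0.345 over all genes. PEX5, for example, measured 19.0, 27.7 and 21.1 TPM in PI5P4K-depleted libraries and 14.3, 25.4 and 16.3 TPM in controls. MT1E, at a distance of 0.110, was the nearest metallothionein and ranked 31 among all genes, so many genes of other kinds ran closer to MT2A than its own relative did. For SLC30A1 the nearest were ANTXR1, NCR3LG1, KLF11, CEBPD and ANKRA2, at distances of 0.077 to 0.088, and MT1E ranked 127. With 6 values per gene close matches arise readily among this many genes, and nothing about shared control follows from them.

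The sequences before MT2A, MT1X and SLC30A1 are shown because MTF1 acts there and because the levels of MT2A and MT1X ran in different orders over the libraries. The 250 bases before the start were used for MT2A, MT1X, SLC30A1 and MTF1, and for the nearby MT1B, MT1H and MT4, and are from RefSeq on GRCh38.p14. They were searched on both strands for the core of the metal response element, written as TGCACNC and TGCGCNC. The first 3 are shown, 5′ to 3′ on the strand of the gene, with matches in capitals (as their reverse complement where the match is on the other strand). MT2A is at chr16:56608334-56608583, plus strand, MT1X at chr16:56682220-56682469, plus strand, and SLC30A1 at chr1:211579162-211579411, minus strand.
MT2A: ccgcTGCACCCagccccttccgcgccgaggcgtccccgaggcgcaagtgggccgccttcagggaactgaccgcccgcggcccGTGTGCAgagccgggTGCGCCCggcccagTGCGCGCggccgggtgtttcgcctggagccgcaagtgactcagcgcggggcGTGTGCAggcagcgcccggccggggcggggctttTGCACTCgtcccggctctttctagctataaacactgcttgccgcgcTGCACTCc
MT1X: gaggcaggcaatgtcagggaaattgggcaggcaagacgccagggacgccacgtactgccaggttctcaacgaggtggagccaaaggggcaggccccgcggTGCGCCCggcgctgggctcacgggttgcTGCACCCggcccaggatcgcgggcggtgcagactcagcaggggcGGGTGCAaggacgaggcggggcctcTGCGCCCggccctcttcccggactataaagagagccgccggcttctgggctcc
SLC30A1: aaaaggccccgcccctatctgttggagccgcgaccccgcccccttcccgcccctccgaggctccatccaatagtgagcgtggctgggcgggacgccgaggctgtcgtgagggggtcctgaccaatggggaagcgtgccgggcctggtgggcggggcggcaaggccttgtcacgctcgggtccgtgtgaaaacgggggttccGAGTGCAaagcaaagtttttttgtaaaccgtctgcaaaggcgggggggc

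The stretch before MT2A held 7 matches, that before MT1X 4 and that before SLC30A1 1, while MTF1 had 0. MT1E, MT1F, MT1G, MT1L and MT1M were not searched, because no stretch before them was available. Among the genes searched, the number of matches did not follow the level of the gene. The stretch before MT1H, which averaged 0.175 TPM, held 8, and those before MT1B and MT4 held 3 each, although MT4 was at 0 in all libraries. Of 35116 stretches of the same length before other RefSeq genes and these, 24.8% held at least 1 match, 0.37% at least 4 and 0.0313% at least 7. A match is a run of letters and not a shown binding site.

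The neighbours of the metallothionein cluster, which the choice of genes did not use, gave no calls in the fit over all genes. Of the 5 nearest tested genes on each side in RefSeq order, 0 of 10 passed the threshold, with log2 differences between -0.20 and 0.89 (median 0.02, lowest adjusted p = 0.493, limma, and 0 genes at an unadjusted p under 0.05, which 11.9% of all tested genes had). BBS2, a ciliary protein gene and the nearest before the cluster, measured 15.9, 17.7 and 14.1 TPM in PI5P4K-depleted libraries and 16.2, 14.8 and 13.6 TPM in controls (log2 difference 0.09, 95% interval -0.20 to 0.38, limma adjusted p = 0.857). NUP93, a nuclear pore protein gene and the nearest after it, measured 44.9, 49.0 and 47.1 TPM in PI5P4K-depleted libraries and 38.9, 47.2 and 46.3 TPM in controls (log2 difference 0.09, 95% interval -0.15 to 0.34, limma adjusted p = 0.816). The value of 0.89 belonged to CES1, a carboxylesterase gene chosen after its values were seen, which varied widely within both groups, with 10.3, 34.8 and 18.1 TPM in PI5P4K-depleted libraries and 4.13, 19.2 and 10.7 TPM in controls.

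The other metallothionein genes were barely detected. Of 9 with a row in the table, MT3, the brain isoform, and MT4, the squamous isoform, were at 0 in all 6 libraries and none reached a mean of 1 TPM. MT1B, beside MT1F in the cluster, measured 0.234, 0.235 and 0.233 TPM in PI5P4K-depleted libraries and 0, 0.216 and 2.69 TPM in controls. Control replicate 3 was thus the high library for both MT1B and MT1M.

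**Figure D4:**
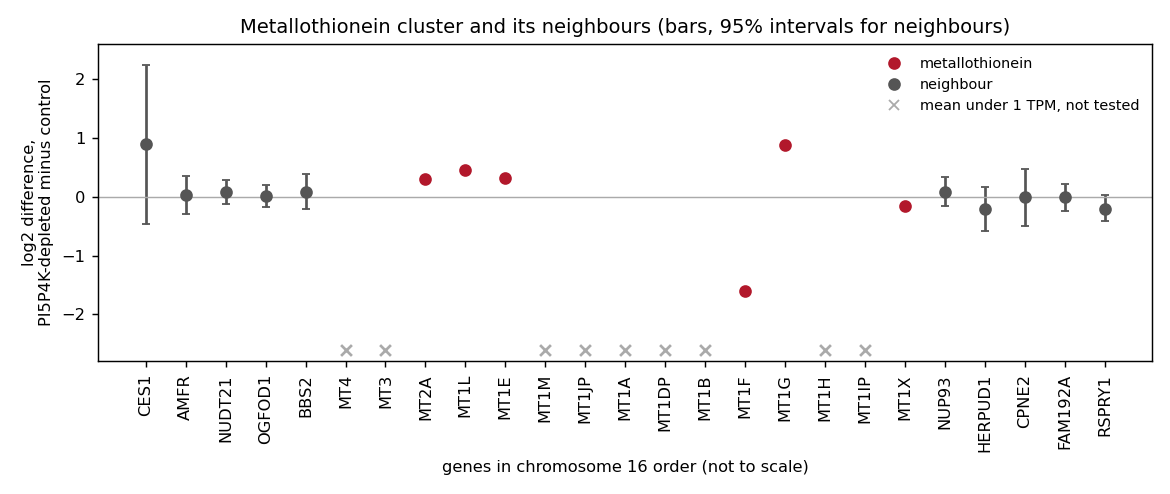
Log2 difference (PI5P4K-depleted minus control) of the metallothionein genes (red) and the 5 nearest tested genes on each side (grey, with 95% intervals of the limma fit) in chromosome 16 order, not to scale. MT1F is at -1.61, and the grey neighbours lie between -0.20 and 0.89; crosses mark genes with a mean under 1 TPM.

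Other zinc transporters gave no calls. Of 10 listed exporter genes besides SLC30A1, 5 were tested and 0 passed the threshold in either direction, beside 2.19% of all tested genes. The median log2 difference of the 5 was -0.09, beside -0.01 for all tested genes. SLC30A9, a mitochondrial zinc exporter and the most abundant of them, measured 74.9, 67.7 and 58.7 TPM in PI5P4K-depleted libraries and 76.2, 73.5 and 64.3 TPM in controls (log2 difference -0.09, 95% interval -0.37 to 0.19, limma adjusted p = 0.856). SLC30A5, which loads zinc into the secretory pathway, measured 47.3, 67.6 and 62.6 TPM in PI5P4K-depleted libraries and 51.0, 72.0 and 69.2 TPM in controls (log2 difference -0.11, limma adjusted p = 0.889). Exporter levels overlapped between the groups for both genes.

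Of 14 importer genes, 11 were tested and 0 passed the threshold in either direction, beside 2.19% of all tested genes. Their median log2 difference was -0.10. SLC39A1, a plasma membrane importer, measured 111, 111 and 130.2 TPM in PI5P4K-depleted libraries and 116, 123.5 and 127 TPM in controls (log2 difference -0.06, limma adjusted p = 0.893). SLC39A6, an importer first described as an oestrogen-regulated gene of breast cells, measured 109, 108 and 107 TPM in PI5P4K-depleted libraries and 83.4, 81.4 and 87.8 TPM in controls. Its groups did not overlap, but it did not pass over all genes (log2 difference 0.36, SE 0.08, 95% interval 0.18 to 0.53, limma adjusted p = 0.0764). It passed under 1 of 14 alternatives (limma adjusted p 0.0181 to 0.27). At an unadjusted p under 0.05 the importer list held 1 of 11 genes and the exporter list 0 of 5, beside 11.9% of all tested genes.

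Among 5 other zinc-linked genes, 4 were tested and 0 passed in limma (median 0.03, 0 genes at an unadjusted p under 0.05). GCLC, the rate-limiting subunit of glutathione synthesis and a target of MTF1 in mouse, measured 46.4, 96.0 and 42.9 TPM in PI5P4K-depleted libraries and 45.7, 106 and 37.0 TPM in controls (log2 difference 0.03, 95% interval -1.03 to 1.09, limma adjusted p = 0.991). It was highest in replicate 2 of each group. CBWD1, a zinc-binding GTPase gene with close copies in the genome, measured 56.0, 53.0 and 41.1 TPM in PI5P4K-depleted libraries and 52.9, 51.3 and 49.6 TPM in controls (log2 difference -0.05, limma adjusted p = 0.946).

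Copper handling was examined because metallothioneins also bind copper. Of 15 genes, all tested, 0 passed (median -0.03, 2 of 15 genes at an unadjusted p under 0.05, beside 11.9% of all tested genes). SLC25A3, the mitochondrial phosphate and copper carrier, measured 594, 591 and 601 TPM in PI5P4K-depleted libraries and 526.5, 595 and 572.5 TPM in controls (log2 difference 0.08, limma adjusted p = 0.802). SOD1, the copper and zinc superoxide dismutase, measured 362, 434 and 420.5 TPM in PI5P4K-depleted libraries and 346, 457 and 394 TPM in controls (log2 difference 0.03, limma adjusted p = 0.972).

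Of the 15 genes linked to metal, heat or oxidant stress, 0 passed (median 0.03, 1 gene at an unadjusted p under 0.05). HSPA8, a constitutive chaperone, measured 2275.5, 2711 and 2454 TPM in PI5P4K-depleted libraries and 2328, 2707 and 2257 TPM in controls (log2 difference 0.03, limma adjusted p = 0.963). NQO1, a quinone reductase, measured 484, 660.1 and 400.3 TPM in PI5P4K-depleted libraries and 415, 607 and 369.6 TPM in controls (log2 difference 0.15, limma adjusted p = 0.886). HMOX1, haem oxygenase, is strongly induced by cadmium and was chosen after its values were seen. It measured 3.57, 4.84 and 2.97 TPM in PI5P4K-depleted libraries and 7.77, 7.85 and 7.13 TPM in controls, without overlap (log2 difference -0.86, SE 0.17, limma adjusted p = 0.0654). HMOX1 passed under 3 of 14 alternatives (limma adjusted p 0.0256 to 0.206), among them the fit without PI5P4K-depleted replicate 2 (limma adjusted p = 0.0475).

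Glucocorticoid response genes were examined because steroid hormones induce MT2A. Of 14 genes, 13 were tested and 0 passed (median -0.03, 1 gene at an unadjusted p under 0.05). ANGPTL4, a lipase inhibitor, measured 1115, 812 and 1233 TPM in PI5P4K-depleted libraries and 1085, 945 and 1334 TPM in controls (log2 difference -0.10, limma adjusted p = 0.918). FKBP5, a chaperone of the glucocorticoid receptor and a usual readout of it, measured 271, 325.5 and 299.8 TPM in PI5P4K-depleted libraries and 231, 305 and 242 TPM in controls (log2 difference 0.21, 95% interval -0.10 to 0.52, limma adjusted p = 0.621). FKBP5 was highest in replicate 2 of each group, as MT2A was, but its ratios of 1.14 in PI5P4K-depleted cells and 1.29 in controls missed the limit used above. Of the 13 tested genes, 4 met that limit and 5, ANGPTL4 among them, had a ratio below 1 in both groups.

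**Figure D5:**
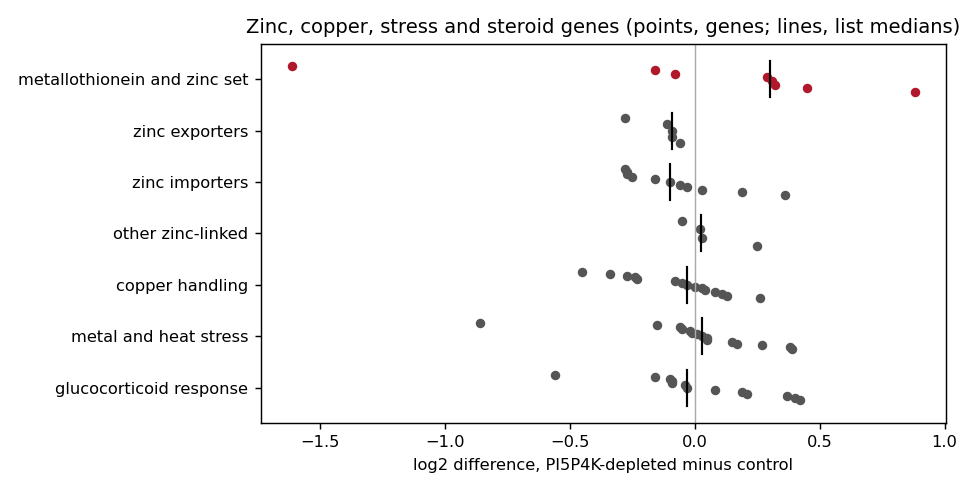
Log2 difference (PI5P4K-depleted minus control) of the tested metallothionein and zinc genes (red) and of tested genes in 6 lists (grey), with a line at each median. MT1F is the point at -1.61 and HMOX1 that at -0.86, and the 6 list medians lie between -0.10 and 0.03.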

How the data were processed

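RNA-seq of 3 PI5P4K-depleted and 3 control libraries was used. The authors deposited a table of TPM for 27914 genes, 1 column per library, each column summing to 1000000. Per the submitters' processing notes, reads were handled on hg19. No aligner, quantification program, annotation or filter was given in the sources used here. Columns headed as the experiment were assigned to PI5P4K-depleted samples by replicate number, as the group not named control. The depth per sample is unknown from TPM.

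Tests used log2(TPM + 1), a scale that understates changes of low genes. Genes averaging 1 TPM or more (12096) entered limma 3.58.1 under R 4.3.3 (empirical Bayes with a mean-variance trend, two-sided), with Benjamini-Hochberg adjustment over all of them. The fit was also run on simulated data with independent noise in each library. That run cannot show how the fit behaves where same-numbered libraries deviate together. Members and lists were chosen with earlier results of these data known. Named by rule were all members, the genes of each list past the threshold and its 2 most highly expressed, the nearest neighbours of the cluster, and the 5 genes closest to MT2A and to SLC30A1, not all of which are reported here. The lists of zinc transporters, zinc-linked, copper, stress and glucocorticoid genes and cell markers came from general knowledge. Of 14 other metallothionein symbols listed, 9 matched rows of the table. Alternatives were the pseudocount, the filter, rescaling, the trend, a replicate block and leaving out each library.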

Additional observations from a re-analysis of the deposited data

How the results depend on the processing

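MT1F, picked on this comparison, was past the threshold under all 14 alternatives, with log2 differences of -1.80 to -1.38. The alternatives reuse the same libraries, so this describes how MT1F depends on the processing and lends no further support. The summed metallothionein difference of 0.30 stayed between 0.15 and 0.54 when each library was left out in turn, and between 0.30 and 0.32 otherwise. The replicate numbers were not taken to pair the samples. Deviations from the group means of same-numbered libraries correlated at 0.246 and 0.269 for replicates 1 and 2 but at -0.015 for replicate 3. The libraries numbered 3 did not correlate best with their own number, while those numbered 1 and 2 did. PI5P4K-depleted replicate 1 with control replicate 2 gave -0.293, and PI5P4K-depleted replicate 2 with control replicate 1 gave -0.238. Whether the numbers pair some of the samples is thus unknown. With the replicate number as a block, 881 genes passed (284 higher, 597 lower) in place of 265, as did 2 members (MT1F and MT1L), 2 zinc importers, 1 copper gene, 2 stress genes, 2 glucocorticoid genes and 3 breast epithelial markers in place of 1, with SLC39A6 at an adjusted p of 0.0181 and HMOX1 at 0.0256 (limma). Leaving out each library gave 106 to 219 calls (13 to 30 higher, 91 to 189 lower). The count was lowest, at 106, when control replicate 3 was left out, and it was 119 or 163 when PI5P4K-depleted replicate 3 or 1 was. The stress list gave 1 call, HMOX1 (limma adjusted p = 0.0463), without short RNA genes, and 0 to 1 with a library left out. Differences of listed genes that had not passed changed sign with a library left out, over ranges of -0.17 to 0.00 for SLC30A9, -0.27 to 0.04 for SLC30A5, -0.13 to 0.09 for CBWD1, -0.33 to 0.48 for GCLC, -0.07 to 0.13 for SOD1, -0.04 to 0.11 for HSPA8, -0.04 to 0.36 for NQO1, -0.22 to 0.08 for ANGPTL4, -0.32 to 0.88 for KRT17, -0.19 to 0.53 for DCN and -0.22 to 0.44 for COL1A1. EPCAM passed under all 14 alternatives (limma adjusted p 0.000381 to 0.0125), and the epithelial list gave 1 to 2 calls with a library left out. The cause was not tested. MT1G moved to 1.85 with a pseudocount of 0.1. The unknown depth limits what can be said of genes near 0.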
